A study of Rattus norvegicus with 2 samples.

Results

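The 8 adrenergic receptor genes described here are Adra1a, Adra1b, Adra1d, Adra2a, Adra2b, Adra2c, Adrb1 and Adrb3, found by their gene symbols, of 25395 genes measured in sympathetic neurons of the rat stellate ganglion. The stellate ganglion holds the postganglionic neurons that send noradrenergic fibres to the heart. Single cells from the ganglia of Wistar rats, labelled normotensive, and of spontaneously hypertensive rats (SHR), labelled prehypertensive, were sequenced in 1 library per strain with 10x Genomics droplet chemistry, which counts molecules from the 3′ end of the RNA. Both groups were 5-6 weeks old, male per the study's methods, and no treatment or transgene is named for either. The number of animals pooled in each library is not given in the sources used here, the strains differ throughout the genome, and strain and library cannot be told apart.

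Adrenergic receptors are G protein coupled receptors for noradrenaline and adrenaline. The alpha1 receptors act through Gq and phospholipase C, the beta receptors through Gs and adenylyl cyclase, and the alpha2 receptors through Gi and Go, which lower cyclic AMP and hold back N and P/Q type calcium channels. On sympathetic neurons the alpha2 receptors are known as autoreceptors, since noradrenaline released by the terminal binds them and restrains further release.

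Of the 8 genes, the 3 alpha2 genes carried nearly the whole signal, Adra1b and Adrb1 stood near or at 0, and Adra1a, Adra1d and Adrb3 were listed at 0 in both libraries. Adra2a was the highest of the 8 in both strains. The mean in SHR differed from that in Wistar by -25.4% for Adra2a, 14.0% for Adra2b and 23.8% for Adra2c. The sum of the alpha2 genes differed by -6.26%, and Adra2a made up less of it in SHR. With 1 library per strain there is no replicate check on any of these differences, and no p-value is given.

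Each value is the mean over the sympathetic neurons of a library of a gene's counts per 10000 counts of a cell. The number of neurons and the total count of most of them were read from the lowest values, since a gene counted once in 1 cell has a value fixed by that cell's total and by the number of cells. This gave 315 Wistar and 110 SHR neurons. Totals were recovered for 253 Wistar neurons, from 4010 to 227128 counts with a median of 89295, and for all 110 SHR neurons, from 4882 to 232544 with a median of 102781. Totals under 10000 were found in 14.6% of the recovered Wistar neurons and 6.36% of the SHR neurons. The recovered totals summed to 21751800 and 10896665 counts. Intervals are exact 95% Poisson intervals that take each mean as a number of equally weighted counts. On that scale the limit that a count of 0 allows, 3 counts, came to 0.00744 per 10000 for the Wistar library and 0.00543 for the SHR library. Wistar neurons without a recovered total were taken at the lowest recovered one, and shallower neurons among them would widen the Wistar intervals. The intervals and limits cover counting error only, not the spread between cells or animals.

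**Figure D1:**
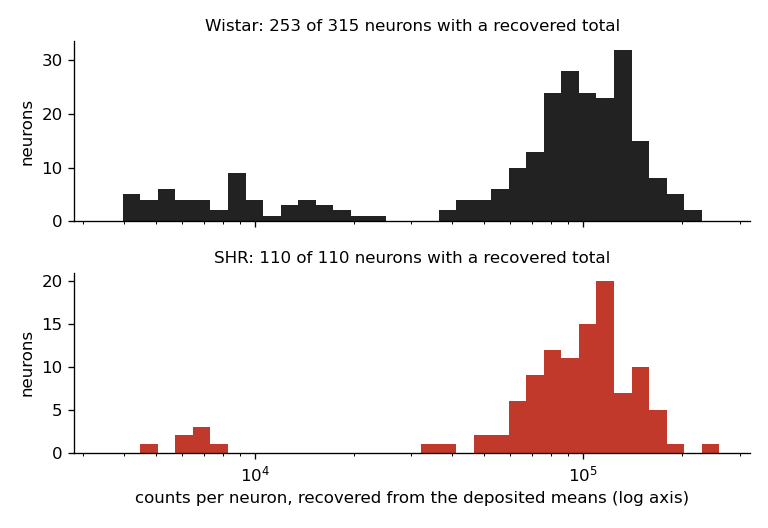
Histograms of the recovered total counts of single neurons in the Wistar (upper) and SHR (lower) libraries, with counts per neuron on a log axis and the number of neurons as bar height. Most neurons form a main peak around the medians of 89295 and 102781, and a separate group of shallow neurons reaches down to 4010 counts in Wistar and 4882 in SHR.

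Levels of marker genes were set beside the neuron label. The paper lists Th, Dbh and Slc6a2 among the markers it used for these neurons, so their detection cannot check the label. All 12 sympathetic neuron markers were detected in both libraries, with summed levels of 193.9 in Wistar and 220.7 in SHR. In SHR 6 of them were lower and 6 higher. The transcription factor gene Hand2 was higher in SHR, at 0.25 and 0.452, and the enzyme gene Dbh was lower, at 10.2 and 6.36. The highest was the neuronal filament gene Prph, at 58.0 and 67.6. For each list of markers of other cells the summed level was lower in SHR. The 8 satellite glia and Schwann cell markers were all detected and all lower in SHR, with sums of 9.34 and 3.45, and the 6 fibroblast markers were all lower, with sums of 1.84 and 0.353. Summed levels were 0.111 and 0.0373 for the 6 endothelial markers measured, all of them lower in SHR, and 0.127 and 0.0743 for 7 vascular smooth muscle and pericyte markers, 5 of them lower, with Rgs5 at 0 in SHR. They were 0.308 and 0.0834 for 6 immune markers, 4 of them lower, with Cd3e at 0 in both, and 0.0669 and 0.0499 for 3 erythrocyte markers, 1 of them lower, with Alas2 at 0 in both. The share of shallow neurons and the levels of these markers thus differed between the strains together with the receptor genes, and their part in the results was not tested.

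The windows upstream of the genes are shown for the alpha2 genes whose transcript start is annotated, beside an alpha1 gene listed at 0. RefSeq (GRCr8) gave the 250 bases before a start for 6 of the 8 genes, and for 5 of them that window ends where the gene's record begins; the window of Adra1b lies within its own gene and is left out here. The expression values were made on Rnor_6.0. The window of Adra2b is chr3:135038231-135038480 on the plus strand, that of Adra2c chr14:79697477-79697726 on the minus strand and that of Adra1d chr3:139262332-139262581 on the minus strand. The window before Adra2a is not shown because its record begins at the start codon. Its 250 bases are thus not known to precede a transcript start, and its values below carry that limit. Capitals mark GGGCGG on either strand, the core of the GC box.
Adra2b: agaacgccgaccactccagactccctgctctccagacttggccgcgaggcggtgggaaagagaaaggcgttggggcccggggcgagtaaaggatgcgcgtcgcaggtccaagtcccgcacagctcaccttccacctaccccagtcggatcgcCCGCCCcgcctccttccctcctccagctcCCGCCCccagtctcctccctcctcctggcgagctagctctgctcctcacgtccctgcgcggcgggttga
Adra2c: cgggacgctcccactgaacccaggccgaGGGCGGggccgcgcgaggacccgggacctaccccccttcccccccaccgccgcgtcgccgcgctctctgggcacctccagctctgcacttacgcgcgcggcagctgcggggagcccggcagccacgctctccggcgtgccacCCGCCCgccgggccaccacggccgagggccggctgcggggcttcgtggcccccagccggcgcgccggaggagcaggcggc
Adra1d: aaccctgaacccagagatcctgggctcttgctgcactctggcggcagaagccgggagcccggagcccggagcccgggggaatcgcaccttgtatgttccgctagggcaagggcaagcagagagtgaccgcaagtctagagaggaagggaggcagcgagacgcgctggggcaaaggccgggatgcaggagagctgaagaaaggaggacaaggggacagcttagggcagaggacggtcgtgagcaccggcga
GGGCGG was found at 2 places in the window of Adra2b, at 2 in that of Adra2c and at none in those of Adra2a, Adra1d and Adrb1, while 30.5% of 33469 windows of the same length held it. The 5 windows were 64.0% GC for Adra1d, 67.6% for Adra2a, 68.0% for Adra2b, 80.4% for Adra2c and 72.0% for Adrb1, against a median of 51.2% over all windows. They held from 16 to 36 CG dinucleotides, against a median of 5, and the window of Adra1d, listed at 0, held the 16. The E box CAGCTG, which reads the same on both strands, was found once in the windows of Adra2a and Adra2c and in 12% of all windows. The cyclic AMP response element TGACGTCA and the TATA motif TATAAA were in none of the 5, and in 1.59% and 12.9% of all windows. These are matches of letters, searched on both strands, and no binding was measured.

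Adra2a encodes the receptor known as the main autoreceptor of sympathetic terminals. Its mean was 0.405 counts per 10000 in the Wistar library (interval 0.345 to 0.472) and 0.302 in the SHR library (0.258 to 0.352). These means rest on a precision equal to 163 and 167 counts. It ranked 4076 of the 16000 genes above 0 in Wistar and 4239 of the 14645 above 0 in SHR. The ratio of SHR to Wistar was 0.746, with a counting interval of 0.598 to 0.932, and the log2 ratio was -0.42. The level per 10000 counts was lower in SHR by more than counting error alone. Over the 7621 genes that averaged at least 0.1 per 10000, the median log2 ratio was -0.21. Put as a ratio, that median lies inside the counting interval of Adra2a. A difference of Adra2a from the median gene beyond counting error was therefore not shown. A mean over cells cannot tell fewer cells with the gene from fewer counts per cell.

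Adra2b, best known for the constriction of blood vessels, was the second of the 8 genes in level. Its mean was 0.231 in Wistar (0.186 to 0.283) and 0.263 in SHR (0.222 to 0.310), and the ratio of 1.14 had an interval of 0.873 to 1.49, which spans equality. The log2 ratio was 0.19. Put as a ratio, the median of all genes, -0.21 in log2, lies just below the interval of Adra2b. It lies inside that interval, then 0.821 to 1.59, when cell totals were read only from values repeated in at least 5 genes. The rank of Adra2b among genes above 0 was 5737 in Wistar and 4632 in SHR.

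Adra2c encodes a receptor known to work beside the Adra2a product as an autoreceptor, above all at low rates of nerve firing. Its mean was 0.102 in Wistar (0.0729 to 0.138) and 0.126 in SHR (0.0980 to 0.159), a ratio of 1.24 whose interval, 0.830 to 1.87, again spans equality. The log2 ratio was 0.31. Put as a ratio, the median of all genes lies inside the interval of Adra2c. It lies below that interval, then 0.891 to 1.71, when neurons without a recovered total were left out. About 50.6% of the genes above 0 were lower than Adra2c in Wistar and 55.0% in SHR.

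The order Adra2a, Adra2b, Adra2c held in both libraries. In Wistar the counting intervals of neighbouring genes did not overlap. In SHR those of Adra2a and Adra2b overlapped, while those of Adra2b and Adra2c did not. These are 3′ tag counts, which are not divided by transcript length, and the order between genes is that of such counts.

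**Figure D2:**
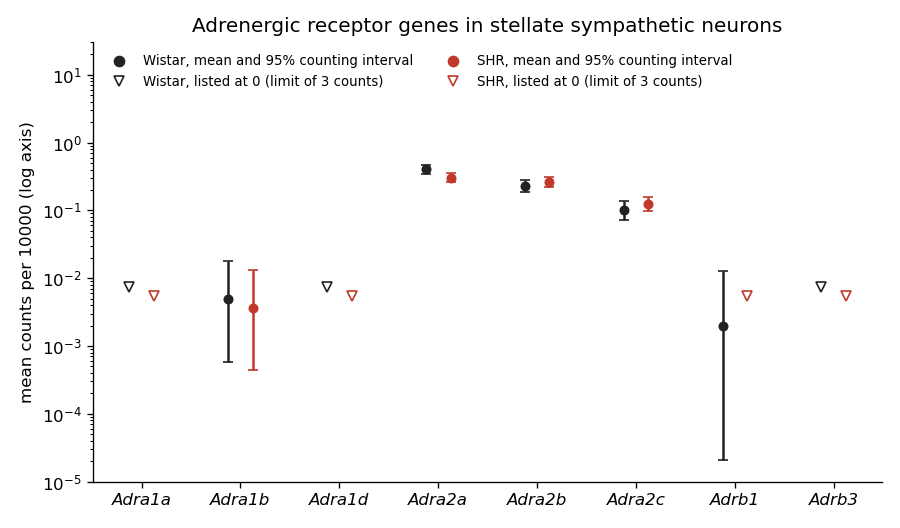
Mean counts per 10000 of each of the 8 adrenergic receptor genes on a log axis, Wistar in black and SHR in red, with exact 95% counting intervals; open triangles mark, on the same scale, the limit of 3 counts for genes listed at 0. The 3 alpha2 genes lie between 0.102 and 0.405, while Adra1b and Adrb1 lie under 0.005 with wide intervals.

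The alpha1 receptors contract smooth muscle and are mostly known on target organs. Adra1b was listed at 0.00487 in Wistar (0.000572 to 0.0178) and at 0.00362 in SHR (0.000438 to 0.0131). The SHR value matched 1 combination of 3 single counts, in neurons with totals of 114701, 87736 and 50813, and no combination of up to 3 counts in the recovered neurons gave the Wistar value. Both means lie under the limit of 3 counts, so no fold is given and no difference was detectable at this depth. Adra1a and Adra1d were listed at 0 in both libraries, which allows a mean of up to 0.00744 per 10000 in Wistar and 0.00543 in SHR.

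Adrb1 encodes the main beta receptor of heart muscle, and Adrb3 a receptor best known from fat and bladder. Adrb1 was listed at 0.00195 in Wistar (2.07e-05 to 0.0129), a value that matched 1 combination of 2 counts in neurons with totals of 129883 and 18637, and at 0 in SHR. Both values lie under the limit of 3 counts, so no fold is given. Adrb3 was listed at 0 in both.

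The alpha2 genes summed to 0.737 in Wistar (0.656 to 0.826) and 0.691 in SHR (0.623 to 0.764), and these intervals overlap. Adra2a made up 54.9% of that sum in Wistar (exact Clopper-Pearson interval 49.1 to 60.6%) and 43.7% in SHR (38.7 to 48.9%), a difference of -11.2 percentage points with intervals that only just failed to overlap. They did overlap, at 47.8 to 61.9% and 37.4 to 50.1%, when the cell totals were read only from values repeated in at least 5 genes. The share of Adra2b was 31.3% in Wistar (26.1 to 36.9%) and 38.1% in SHR (33.2 to 43.2%). That of Adra2c was 13.8% (10.1 to 18.2%) and 18.2% (14.5 to 22.4%). The intervals of these last shares overlapped between strains. Put as ratios within a library, the mean of Adra2a was 1.75 times that of Adra2b in Wistar and 1.15 times in SHR, and it was 3.98 times that of Adra2c in Wistar and 2.4 times in SHR. The ratio of Adra2b to Adra2c was much closer, 2.27 and 2.09. Ratios within a library do not depend on how the libraries were scaled to each other.

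**Figure D3:**
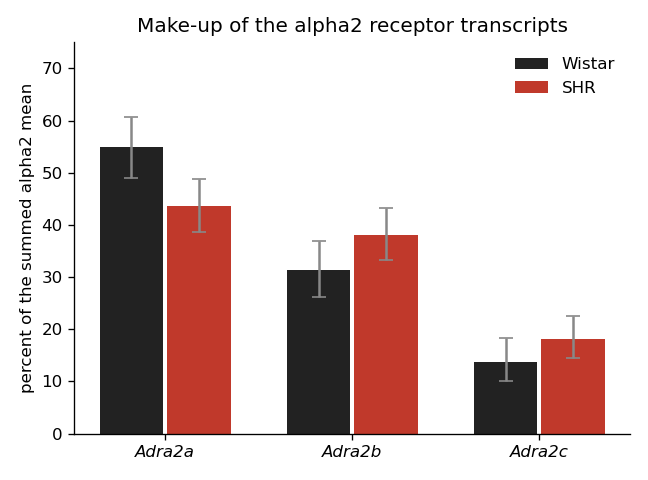
Share of the summed alpha2 level (percent) taken by Adra2a, Adra2b and Adra2c in the Wistar and SHR neurons, with exact 95% binomial intervals that cover counting error only. Adra2a holds 54.9% of the sum in Wistar and 43.7% in SHR.

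A difference in size was called where the ratio of the means was at least 1.5 in either direction, among genes whose 2 library means averaged 0.1 per 10000 or more. Of the 8 genes the 3 alpha2 genes passed that minimum and none was called, with 31.7% of 7621 genes in either direction, 26.5% lower in SHR and 5.22% higher, called among all genes; a count of 0 of 3 says little beside such shares. Among the 4423 genes with an average under 0.5, the range of the alpha2 genes, 38.1% were called. The median log2 ratio was -0.21 over all 7621 genes and -0.34 in the lower range, where 73.9% of genes were lower in SHR. Relative to the median of all genes, the log2 ratios were -0.21 for Adra2a, 0.40 for Adra2b and 0.52 for Adra2c, and 35.4%, 77.6% and 83.7% of genes had a lower ratio. Setting the median gene to 0 changed the background from 2021 genes lower and 398 higher to 1320 lower and 1005 higher, and left the direction of the 3 alpha2 genes as it was.

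**Figure D4:**
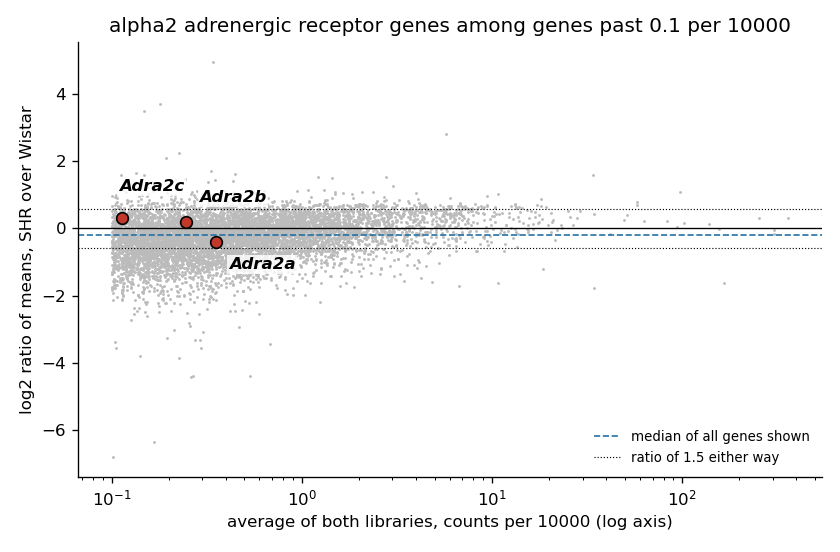
Log2 ratio of SHR over Wistar means against the average level (log axis) of the 7621 genes past 0.1 per 10000, each gene a grey point, with the alpha2 genes in red, the median of -0.21 dashed and the ratio of 1.5 dotted. Adra2a at -0.42 and Adra2b and Adra2c at 0.19 and 0.31 all lie between the dotted lines.

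Sympathetic neurons carry other receptors that couple to Gi and Go, and some of these restrain release. Of 18 such genes 5 passed the minimum, 4 lower in SHR and 1 higher, with 3 and 1 called beside background shares of 26.5% and 5.22%, and with a median log2 ratio of -1.23 and summed levels of 1.78 in Wistar and 0.991 in SHR. The M2 muscarinic receptor gene Chrm2 was at 0.571 in Wistar (0.50 to 0.650) and 0.244 in SHR (0.204 to 0.288), and the D2 dopamine receptor gene Drd2 at 0.506 (0.439 to 0.580) and 0.202 (0.166 to 0.243). Hrh3, the histamine H3 receptor gene, was at 0.173 (0.135 to 0.219) and 0.0638 (0.0445 to 0.0886). The nociceptin receptor gene Oprl1 was at 0.298 and 0.204 and was not called. Npy1r, which binds the cotransmitter neuropeptide Y, was called higher, at 0.0838 (0.0579 to 0.117) and 0.133 (0.104 to 0.167), though these intervals overlap. Npy2r, another neuropeptide Y receptor gene, was at 0.00196 in Wistar and 0 in SHR. Among these 18 and the 3 alpha2 genes, Adra2a stood at place 3 in Wistar, behind Chrm2 and Drd2, and at place 1 in SHR. Adra2b was at place 5 in Wistar and place 2 in SHR, and Adra2c was at place 7 in both. In SHR the counting intervals of Adra2a (0.258 to 0.352) and Adra2b (0.222 to 0.310) overlap each other and that of Chrm2. In Wistar those of Adra2a (0.345 to 0.472) and Drd2 overlap. Counting error thus leaves the order of these genes unsettled. The summed alpha2 level of 0.737 and 0.691 stands beside these sums, and whether the groups of receptors differ in their strain ratio was not tested.

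**Figure D5:**
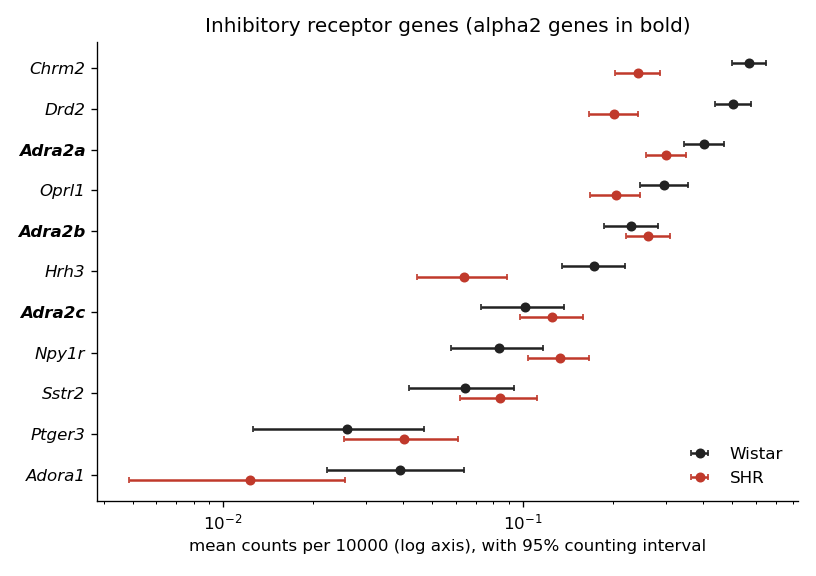
Mean counts per 10000 (log axis) of the alpha2 genes (bold) and the higher of the other inhibitory receptor genes, Wistar in black and SHR in red, with exact 95% counting intervals. Chrm2 and Drd2 have the highest means in Wistar at 0.571 and 0.506, and Adra2a and Adra2b in SHR at 0.302 and 0.263. In SHR the intervals of Adra2a and Adra2b overlap that of Chrm2.

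The genes that make, store, take back and break down noradrenaline, and those that carry the receptor signal, were taken as a list of 42, of which 24 passed the minimum. In SHR 18 of these were lower and 6 higher, 9 were called lower and 1 higher beside background shares of 26.5% and 5.22%, and the median log2 ratio was -0.41 against -0.21 over all genes. With the median gene set to 0, 14 were lower.

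All 7 genes of noradrenaline supply passed and were lower in SHR. Slc6a2, the noradrenaline transporter gene, was the highest at 15.9 and 15.2 counts per 10000 in Wistar and SHR, and Th, the rate-limiting enzyme, was at 10.2 and 10.1; both differences were small and turned when the median gene was set to 0. Called lower were Ddc, which makes dopamine, at 7.05 and 3.44, Dbh, which turns dopamine into noradrenaline, at 10.2 and 6.36, and Maoa, which degrades it, at 1.78 and 1.11.

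Of 9 G protein alpha subunit genes 5 passed, 4 of them higher in SHR, and none was called. Gna11, the other, was at 0.205 and 0.189 and turned when the median gene was set to 0. The Gi and Go subunit genes Gnai2 and Gnao1, through which alpha2 receptors signal, were at 2.12 and 2.36 and at 1.63 and 1.91 in Wistar and SHR. The Gs gene Gnas, the partner of the beta receptors, was the highest, at 5.72 and 8.55, just under the ratio of 1.5. Receptor kinases and arrestins switch off activated receptors. Of 7 such genes 4 passed: Grk3 was called lower at 0.377 and 0.192 and Arrb1 higher at 0.125 and 0.239, and Grk6 was the highest at 0.717 and 0.529.

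Of the effectors, 3 of 9 adenylyl cyclase genes passed and all were lower in SHR. Adcy2 was at 0.712 and 0.465 and Adcy6 at 0.25 and 0.156, both called, and Adcy3 was at 0.381 and 0.319. Of 4 phospholipase C beta genes, the effectors of Gq, 3 passed; Plcb4 was at 5.82 and 3.66 and was called lower, beside alpha1 genes near 0. The 2 calcium channel genes were both called lower, the P/Q type Cacna1a at 0.907 and 0.425 and the N type Cacna1b at 2.67 and 1.28. None of the 4 G protein gated potassium channel genes passed. Kcnj9 was the highest of them in Wistar, at 0.0368 and 0.0178, Kcnj3 was the highest in SHR, at 0.0227 and 0.0218, and Kcnj6 was listed at 0 in both.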

How the data were processed

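The labels name 10x Genomics single cell 3′ v3 libraries, and the submitters' processing notes name Cell Ranger 3.0.2, Seurat 3 and Rnor_6.0. Filters on cells and the treatment of doublets are not given in the sources used here, and doublets cannot be looked for in means. The deposited table of a library holds, for every gene, the natural log of 1 plus the mean over sympathetic neurons of counts per 10000. The exponential less 1 gave the means, which sum to 10000. Of 25399 lines, 4 with repeated names were left out. A deposited table of the authors' own fold changes, p-values and shares of cells was not used.

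The members and lists were chosen with earlier results of these data known. The named genes were the 8 members and, in each list, the gene with the highest mean and genes past the ratio of 1.5, at most 5 a list, and some genes of the lists are not reported here; other genes named for their role were chosen after their values were seen. The likeness rule took the 3 genes nearest to Adra2a in the 2 log values.

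The number of neurons was the one for which the cell totals behind repeated lowest values were whole numbers. For 315 Wistar neurons 147 of 148 values were whole, and for 110 SHR neurons 107 of 110. A mean was turned into counts through the harmonic mean of the totals, with neurons that lacked a total given the lowest recovered one. Because each neuron weighs the same, a few shallow neurons can set much of a low mean. Python 3.11.15, pandas 2.3.3, NumPy 2.4.6, SciPy 1.17.1 and matplotlib 3.10.9 were used.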

Additional observations from a re-analysis of the deposited data

How the results depend on the processing

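Leaving out a library would leave a strain with none. No paired analysis was possible because a strain is a single library. A pseudocount cannot turn a ratio. With ribosomal protein and mitochondrial genes left out of the total, the log2 ratios of Adra2a, Adra2b and Adra2c were -0.38, 0.23 and 0.35, without markers of other cells they were -0.42, 0.19 and 0.31, and with the median gene at 0 that of Adra2a was -0.21. None of the 3 was called under any setting of the size rule that was run; with a minimum of 1 per 10000 none of them passed. The count of genes lower in SHR, 2021, became 195 with a minimum of 1, 5108 with no minimum, 861 at a ratio of 2, 1320 with the median gene at 0 and 1294 with a pseudocount of 0.1. The count of genes higher, 398, became 172, 1650, 58, 1005 and 233 in the same order, and 174 among genes with an average under 0.5, a range chosen after seeing the data. The median log2 ratio of the signalling list, -0.41, became -0.26 with no minimum, -0.20 with the median gene at 0 and -0.29 with a pseudocount of 0.1.

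The precision behind Adra2a, 163 counts in Wistar and 167 in SHR, became 112 and 108 when only values repeated in at least 5 genes were read. It became 353 in Wistar when the 62 neurons without a recovered total were left out, an alternative chosen after seeing the data, so the Wistar intervals depend on what those neurons are taken to be. The interval of the Adra2a ratio was 0.568 to 0.981 under the first of these and 0.617 to 0.900 under the second, both recalculated after seeing the data. The number of neurons stayed 315 and 110. Depth limits Adra1b and Adrb1, whose means lie under the limit of 3 counts, and neither library was replicated.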

Other observations

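The 3 genes past the minimum whose pair of log values lay nearest to that of Adra2a were Ccng2, Dars and Rbm10. Ccng2 had means of 0.399 counts per 10000 in Wistar and 0.303 in SHR, Dars 0.406 and 0.309, and Rbm10 0.398 and 0.307. The likeness is over 2 libraries and is given as values.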
